A study of Mus musculus with 8 samples.

Results

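The effect of a synthetic miR-125b on gene expression was measured in '18-81', a mouse pre-B cell line transformed by Abelson murine leukaemia virus and called the Abelson line here. The comparison uses 4 of the 8 arrays of the study, chosen by their sample titles: 2 from '18-81' cells that received a miR-125b duplex and 2 from '18-81' cells that received the control duplex miR-Neg. The other 4 arrays hold the same comparison in 70Z/3, another mouse pre-B line, and serve here only to show where the Abelson line differs. All groups had 10 nM of a duplex delivered with a lipid reagent, a change of medium at 8 h and RNA extraction at 48 h, so the controls also went through transfection. The 2 replicate numbers stand for 2 independent experiments, and miR-125b was set against miR-Neg within each number (replicate pair 1 and replicate pair 2). A single line per comparison limits what the arrays can model, and a bulk RNA sample cannot tell fewer cells of a kind from less RNA per cell. The question stated for the study is which genes miR-125b targets in B-cell acute lymphoblastic leukaemia.

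MicroRNAs are short RNAs that guide Argonaute proteins to messenger RNAs, mostly in the 3′ untranslated region, where they lower the stability or the translation of the message. Pairing of the seed, bases 2 to 8 of the mature microRNA, is the main determinant of target choice. miR-125b is studied in blood cells because its level affects haematopoietic stem cells, lineage output and leukaemia, and reported targets include regulators of apoptosis and of the p53 pathway. The mature sequences that share its seed in RefSeq (GRCm38.p6) are shown because the seed decides which sites were searched for in the probes. Capitals mark the seed.
mmu-miR-125b-5p: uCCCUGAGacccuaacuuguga
mmu-miR-125a-5p: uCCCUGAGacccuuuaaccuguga
mmu-miR-351-5p: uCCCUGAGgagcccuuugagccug
The mouse genome holds miR-125b-5p at chr9:41581940-41581961 (Mir125b-1) and at chr16:77646279-77646300 (Mir125b-2), both on the plus strand. miR-6367 and miR-6394 carry the same 7 bases. The arrays do not report the mature microRNA, so its uptake by the cells has no value here.

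Levels are log2 processed intensities minus the 75th percentile of the array, so a level of 0 is the brightness of that percentile. The 4 arrays of the Abelson line were alike in brightness within a pair: the percentile was 709.5 intensity units with miR-Neg and 725.1 with miR-125b in pair 1, and 575.3 and 568.6 in pair 2. Between 41.7 and 44.8% of probes were well above background. Markers of pre-B cells bore out the label, with 10 of 12 well above background on all 4 arrays and a summed level (log2 of the summed intensities on the same scale) between 8.31 and 8.41. The recombinase genes Rag1 and Rag2 were the exceptions, on none of the 4 arrays. All 8 arrays lay on 1 slide, on which the row followed the replicate number and each group had a column of its own, so slide column and group cannot be told apart.

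No gene passed the test in the Abelson line. Of 17420 genes tested with limma within pairs, 0 (0%) had an adjusted p under 0.05, and the smallest adjusted p was 0.792. At an unadjusted p under 0.05 there were 724 genes (4.16% of those tested), fewer than the 871 that this threshold gives when nothing differs, with 480 higher after miR-125b (2.76%) and 244 lower (1.4%). With another background correction (normexp) 280 were higher and 247 lower. Quantile normalization gave 437 higher and 265 lower, and the authors' series table gave 429 higher and 273 lower. With 2 arrays a group an exact two-sided permutation test of a single gene that ignores the pairs cannot go below p = 0.333. Shuffling within the pairs allows fewer arrangements, so its limit is higher. In simulated data of the same size, 200 genes were changed by the same amount. The fit recovered 0% of them at 1 or 2 log2 units and 91% at 3. Recovery after adjustment depends on how many genes change, so the 91% does not carry over to data with fewer changed genes. All differences below are therefore measured values that did not pass an adjusted threshold.

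The agreement of the pairs shows how much of the spread was shared. The differences had a standard deviation across genes of 0.33 log2 units in pair 1 and 0.46 in pair 2, and correlated across genes with r = 0.14, a description in which genes are not independent replicates. A difference past 1 log2 unit was found for 264 genes in pair 1 and 711 in pair 2. Both pairs went past 1 unit in the same direction for 80 genes (0.459% of genes tested), 50 lower and 30 higher after miR-125b, and in opposite directions for 18. Among the 16461 genes well above background on all 4 arrays the counts were 44 in the same direction, 36 lower and 8 higher, and 10 in opposite directions. Most of the 80 rest on a single measurement of the transcript: 71 had no other tested probe, and of the 9 that had, 2 showed a difference past 0.5 in the same direction on another probe. In 70Z/3, which played no part in choosing them, 1 of the 80 went past 0.5 in the same direction in both pairs. Of the 80, 44 were well above background on all 4 arrays of that line. How often all genes tested repeat on another probe or in 70Z/3 was not counted, so these counts have no background to be read against.

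**Figure D1:**
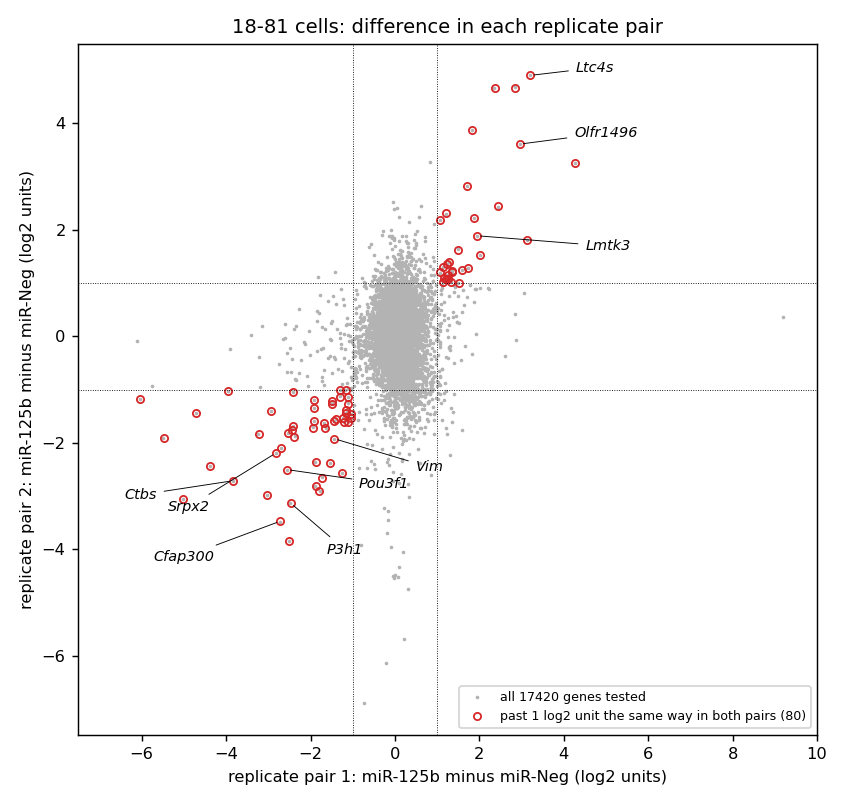
Each grey point is 1 of 17420 genes, with the difference miR-125b minus miR-Neg in log2 units in replicate pair 1 on the horizontal axis and in pair 2 on the vertical axis, and open circles mark the 80 genes past 1 unit in the same direction in both. Ltc4s lies at the upper right, Cfap300, P3h1 and Srpx2 lie at the lower left, and many points far out along an axis differed in a single pair.

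Some of the largest single differences came from a single array. Gm13194, picked after its values were seen, had levels of −2.75 and 6.88 with miR-Neg and 6.45 and 7.25 with miR-125b. Its difference of 9.19 log2 units in pair 1 thus came from the first miR-Neg array alone, and pair 2 differed by 0.37. Myh10, a non-muscle myosin heavy chain picked in the same way, had levels of 0.22 and 0.55 with miR-Neg and −5.88 and 0.46 with miR-125b. Here the first miR-125b array stood apart, and the difference was −6.10 in pair 1 and −0.09 in pair 2.

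The genes lower after miR-125b with the smallest p-values, among those with a symbol and well above background on all 4 arrays, numbered 10, and Cfap300, P3h1, Srpx2 and Snhg7 had the largest differences among them. In the miR-125b arrays these 4 stood between 4.34-fold and 8.57-fold below the miR-Neg arrays. The 10 had differences from −3.10 to −1.12 log2 units and adjusted p-values of 0.792 to 0.796 in limma.

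Cfap300 (probe at chr9:8021704-8021763, mm9) encodes a cilia- and flagella-associated protein involved in dynein assembly. Its level was 4.27 and 5.19 with miR-Neg and 1.54 and 1.71 with miR-125b. The groups did not overlap, as for 12.6% of all genes tested, and the difference was −3.10 ± 0.24 log2 units (SE, n = 2 pairs; limma adjusted p = 0.792). Cfap74, a protein of the central apparatus of motile cilia, was bright in both groups. It had levels of 7.32 and 7.38 with miR-Neg and of 6.08 and 5.84 with miR-125b, a difference of −1.39 ± 0.14. Its miR-125b arrays were both below both controls.

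P3h1 encodes a prolyl hydroxylase that modifies collagen chains in the endoplasmic reticulum. The probe at chr4:118917025-118917084 read 1.09 and 1.86 with miR-Neg and −1.38 and −1.27 with miR-125b, a difference of −2.80 ± 0.22. A second P3h1 probe at chr4:118919748-118919807 did not show this, with a difference of 0.22 ± 0.24, and averaging the probes gave −1.29. Srpx2, a secreted sushi-repeat protein, had levels of 1.57 and 1.23 with miR-Neg and of −1.25 and −0.96 with miR-125b, a difference of −2.51 ± 0.21. Vim, the intermediate filament vimentin, was read by 1 probe (chr2:13504232-13504291) at 5.75 and 6.08 with miR-Neg and at 4.31 and 4.16 with miR-125b. This is a difference of −1.68 ± 0.17, or 3.21-fold lower, with both miR-125b arrays below both controls.

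Among the others, Snhg7, a non-coding host gene of small nucleolar RNAs, had levels of 1.40 and 1.39 with miR-Neg and −0.48 and −0.96 with miR-125b. Its difference was −2.12 ± 0.17. Sephs2, which makes the selenium donor for selenoprotein synthesis, read 1.42 and 0.61 with miR-Neg against −1.01 and −1.14, a difference of −2.09 ± 0.22. Tmed9, a cargo receptor between the endoplasmic reticulum and the Golgi, read 6.12 and 6.37 against 5.01 and 5.24. Its difference was −1.12 ± 0.11, and a second Tmed9 probe differed by −0.85 ± 0.22. The remaining 2 of the 10 were the transcript 2310002F09Rik (−1.51 ± 0.12) and the olfactory receptor gene Olfr1443 (−1.36 ± 0.13). Olfr1443 was dim, at −2.64 and −2.77 with miR-Neg and close to the detection limit, at −4.13 and −3.99, with miR-125b. Its difference shrank to as little as −0.70 under alternative processing. For all 10 genes both miR-125b arrays lay below both miR-Neg arrays. The choice by small p-values on these same arrays favours this, and the groups did not overlap for 12.6% of all genes tested.

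Several more genes, named after their values were seen, were lower by over 1 unit in both pairs. Pou3f1, a POU-domain transcription factor, differed by −2.56 in pair 1 and −2.50 in pair 2 and was well above background on 3 of the 4 arrays. Hsf2, a heat shock transcription factor, differed by −3.23 and −1.83. Mettl5, a methyltransferase of ribosomal RNA, differed by −1.79 and −2.90 on 1 probe and by 0.19 on its other probe. Etfdh, which passes electrons from flavoproteins to ubiquinone, differed by −1.04 and −1.46.

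Of the 10 genes higher after miR-125b with the smallest p-values, chosen in the same way, Ltc4s had the largest difference. It encodes leukotriene C4 synthase, which joins glutathione to leukotriene A4, and is known from mast cells and other myeloid cells. Its level (probe at chr11:50049974-50050031) was −0.68 and −0.41 with miR-Neg and 2.52 and 4.49 with miR-125b. The difference was 4.05 ± 0.49 log2 units, a 16.6-fold higher level (limma adjusted p = 0.828). It was 3.21 in pair 1 and 4.90 in pair 2, and the miR-125b arrays differed from each other by more than the controls did. Gm9304, a predicted gene named after its values were seen, was also higher in both pairs, by 2.36 and 4.66.

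The other 9 genes higher by the same rule differed by 0.70 to 1.25 log2 units, with adjusted p-values up to 0.953. Rnase6, a secreted ribonuclease with antimicrobial activity, read −1.14 and −0.73 with miR-Neg and 0.37 and 0.28 with miR-125b. Its groups did not overlap and differed by 1.25 ± 0.18. Mpeg1, the pore-forming protein perforin-2 of macrophages, read −2.36 and −1.48 with miR-Neg and −1.50 and −0.64 with miR-125b. Its difference was 0.86 in pair 1 and 0.84 in pair 2, but the groups overlapped because replicate 2 was brighter in both. The same held for Abcb9, a peptide transporter of lysosomes, which differed by 1.33 and 1.02 within pairs (1.18 ± 0.14). Its level ranged from −2.40 to 0.10 with miR-Neg and from −1.07 to 1.12 with miR-125b. Its difference ran from −0.07 to 2.43 when 1 array was left out and the rest were not paired, the lowest without the first miR-Neg array and the highest without the second. The adhesion molecule Jam2 (1.19 ± 0.17) and the lectin Itln1 (0.71 ± 0.11, and 0.86 ± 0.12 on a second probe) also differed more between replicates than between duplexes. The neuronal kinesin Kif5a (0.86 ± 0.12), Gm11559 (0.85 ± 0.11), Ocstamp, a protein of osteoclast fusion (0.71 ± 0.11), and Tnni2, the fast skeletal troponin I (0.70 ± 0.12), did not overlap. Ocstamp was dim, at −3.59 and −3.92 with miR-Neg and −2.93 and −3.16 with miR-125b. Its difference fell to as little as 0.37 under alternative processing. Groups did not overlap for 12.6% of all genes tested, and the choice by small p-values favours it.

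**Figure D2:**
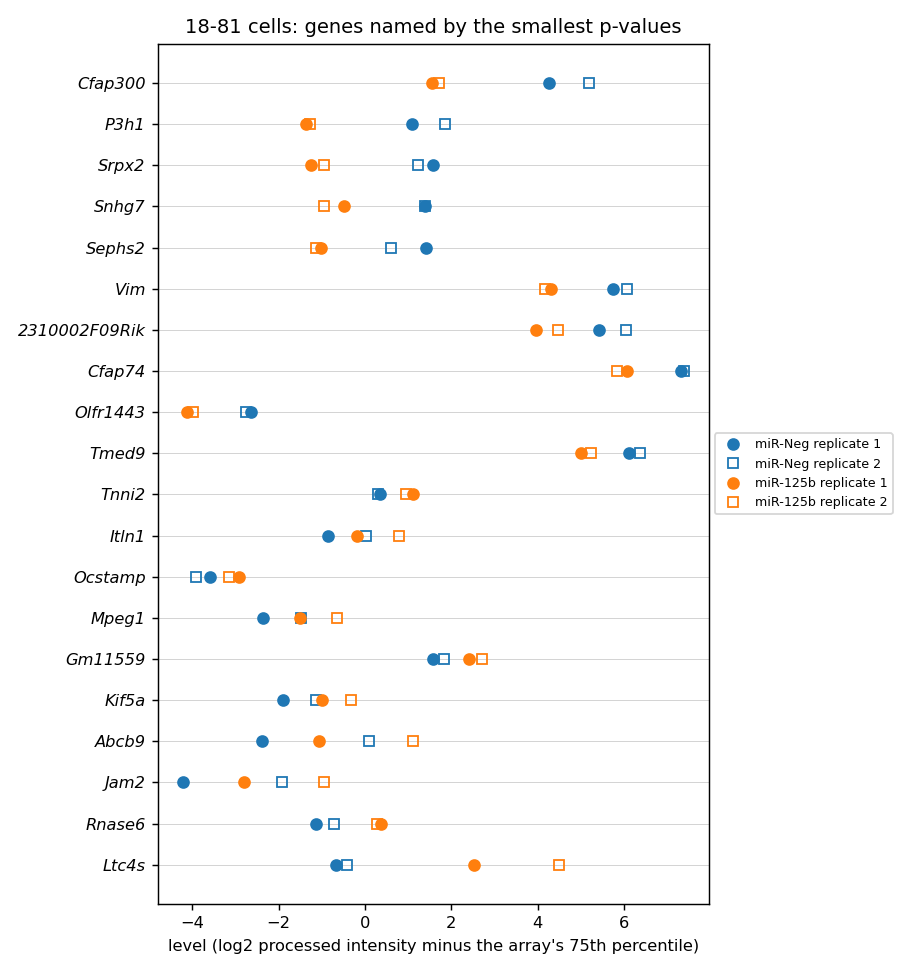
Levels of the 10 lower and 10 higher genes with the smallest p-values on each of the 4 arrays of the Abelson line, as log2 processed intensity minus the 75th percentile of the array; circles are replicate 1, squares replicate 2, blue miR-Neg and orange miR-125b. For the 10 lower genes the colours are separate, while for Abcb9, Jam2, Itln1 and Mpeg1 the replicates lie further apart than the duplexes and the colours overlap.

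A gene can also cross the detection limit. Of the 17420 features tested, 139 were well above background on both miR-125b arrays and on no miR-Neg array, and 24 showed the reverse pattern. With features that have a name in RefSeq alone counted, these were 71 and 13 of 12809 genes. More probes were well above background on the miR-125b array in each pair, 44.8 against 44.0% and 42.0 against 41.7%. The part of this in the imbalance was not tested. Since the dim group then has only a bound, each fold is a lower limit, but only for the main processing. It sets the mean of the bright group against a floor averaged over the arrays, which is the dimmest value of any probe well above background there (−4.7 to −4.2) or, where brighter, the value of the probe itself. The bound exceeded 2-fold for 6 of the 71 and 4 of the 13 (10 of the 139 and 8 of the 24). The largest bound for a lower level was that of Ctbs, a lysosomal chitobiase (probe at chr3:146128348-146128407), whose level was −1.86 and −1.17 with miR-Neg and not well above background with miR-125b. Ctbs was at least 6.83-fold lower after miR-125b (limma adjusted p = 0.792), a bound of 2.77 log2 units. Over the alternative processings its difference ran from −3.28 to −1.52 log2 units, so the bound did not hold in all of them. Zfp526, Gm9246 and Gstm2, a glutathione transferase with close paralogs, were at least 2.2-fold, 2.14-fold and 2.1-fold lower in the main processing. The ADP-ribosyltransferase gene Art3 was at least 1.91-fold and Exoc3l4 at least 1.72-fold lower. None of these bounds held in all alternative processings. There the smallest differences were −0.57, −0.96 and −0.45 log2 units for Zfp526, Gm9246 and Gstm2, against bounds of 1.14, 1.09 and 1.07. For Art3 and Exoc3l4 they were −0.48 and −0.31, against 0.93 and 0.78. Zfp526 differed by −0.56 in pair 1 and −2.34 in pair 2.

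In the other direction the kinase gene Lmtk3 was at least 3.24-fold higher, with levels of −2.76 and −2.61 after miR-125b. It was followed by Olfr1496, an olfactory receptor gene (at least 2.95-fold), the antisense RNA Nrg3os (at least 2.67-fold), the vomeronasal receptor gene Vmn1r52 (at least 2.39-fold), Serpina1e (at least 2.27-fold) and the homeobox gene Alx4 (at least 2.07-fold). All of these levels are near the detection limit, and every one of these differences fell below its bound in at least 1 alternative processing. For Lmtk3 the difference ran from 0.83 to 1.92 log2 units, against a bound of 1.70. For Olfr1496 it ran from 1.02 to 3.29, against 1.56. The lowest values for Nrg3os, Vmn1r52, Serpina1e and Alx4 were 0.60, 0.66, 0.54 and 0.50, against bounds of 1.42, 1.26, 1.18 and 1.05. Adjusted p-values of the genes named for crossing the detection limit were between 0.792 and 0.953. Serpina1e, Olfr1496 and Vmn1r52 belong to families of near-identical genes, so their probes may read relatives.

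Genes reported elsewhere as miR-125b targets had a median close to that of all genes. Of 60 genes on the list 53 were measured, 34 of them below and 19 above the median of all genes. Their median was 0.02 log2 units below that of all genes tested (0.08 below in pair 1 and 0.04 below in pair 2), and 51 of the 53 differed by less than 0.5. Over the alternatives, with 1 array left out included, the list median ran from 0.18 below to 0.04 above. None passed the adjusted test. At an unadjusted p under 0.05, 2 were lower and 0 higher, against 1.4% and 2.76% of all genes.

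The 2 were Prdm1 and Zfp385a. Prdm1 encodes Blimp-1, the repressor that drives plasma cell differentiation. Its level was close to the detection limit, −3.52 and −3.19 with miR-Neg and −4.04 and −3.70 with miR-125b. The difference was −0.51 ± 0.11 (unadjusted p = 0.0167 and adjusted p = 0.953 in limma), with −0.52 in pair 1 and −0.51 in pair 2. With normexp it was −0.18. Zfp385a, a zinc finger protein that modulates p53 target choice, differed by −0.44 ± 0.12, from 0.14 and −1.28 with miR-Neg to −0.21 and −1.81.

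Trp53, which encodes p53, had the lowest mean of the list, but its pairs differed from each other. Its level was 2.38 and 0.68 with miR-Neg and 2.25 and −0.37 with miR-125b, so that pair 1 differed by −0.13 and pair 2 by −1.05 (mean −0.59 ± 0.28). The proapoptotic Bak1, a widely cited target, had levels of 4.57 and 4.22 with miR-Neg and of 4.43 and 4.10 with miR-125b, a difference of −0.13 ± 0.11. Other apoptosis genes on the list stood within 0.25 of 0: Bbc3, which encodes PUMA, at 0.05, Trp53inp1 at 0.02 and Bmf at 0.23. The transcription factor genes Ets1 and Irf4 differed by −0.37 ± 0.19 and 0.04, Stat3 by 0.07, the methylcytosine dioxygenase gene Tet2 by 0.01, the ubiquitin-editing enzyme gene Tnfaip3 by 0.04, Mapk14, the kinase p38 alpha, by 0.01, and Lin28a, a repressor of let-7 maturation, by 0.00. The highest was the Polycomb gene Cbx7, at 0.42 ± 0.16. It was dim, at −3.80 and −3.59 with miR-Neg and −3.58 and −2.97 with miR-125b, and fell to as little as 0.19 in the alternative processings.

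For Arid3a, which encodes the B-cell transcription factor Bright, the answer depended on the probe. The brighter probe (chr10:79417377-79417436), which stands for the gene, read 3.21 and 2.98 with miR-Neg and 2.86 and 2.73 with miR-125b, a difference of −0.30 ± 0.11. The second probe (chr10:79417698-79417757) read 1.84 and 1.72 with miR-Neg and −0.20 and 0.39 with miR-125b. Its difference was −1.68 ± 0.23, 3.21-fold lower (limma adjusted p = 0.92 over 23253 probes), and the mean of both probes was −0.99. In 70Z/3 both probes were lower, the first by 1.63 and 1.10 and the second by 1.72 and 1.41 in the pairs. Ago2, the Argonaute protein that cleaves targets, was similar: 1 of its 4 tested probes (chr15:72928888-72928947) differed by −1.22 ± 0.19, and the other 3 by −0.10 to 0.19.

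**Figure D3:**
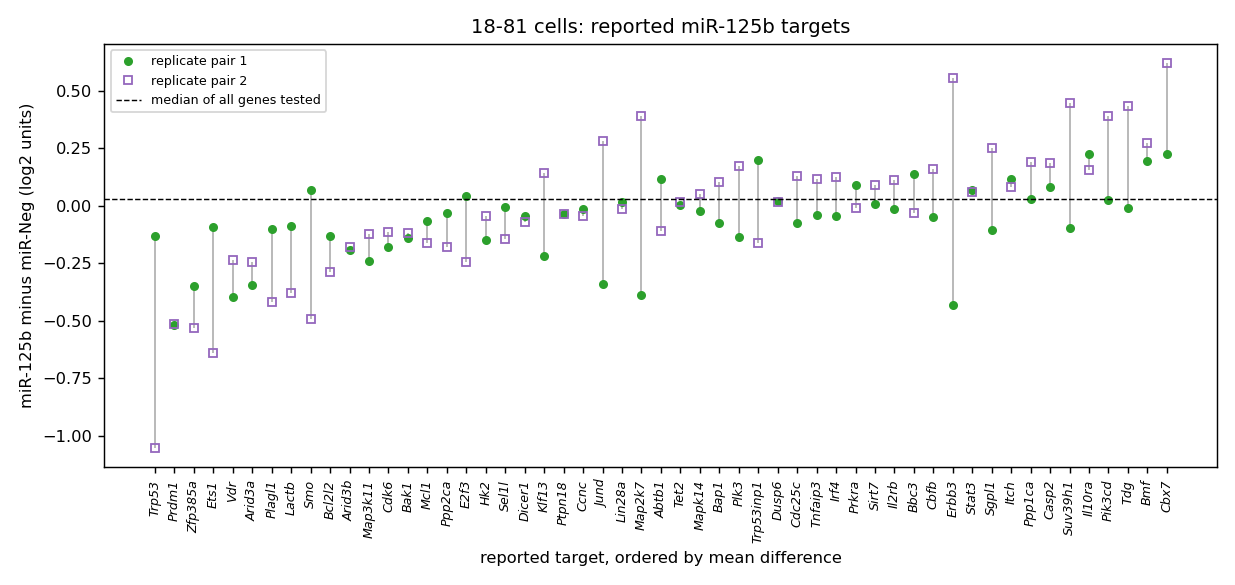
The 53 measured genes reported as miR-125b targets, ordered by mean difference, with miR-125b minus miR-Neg in log2 units on the vertical axis for replicate pair 1 (circles) and pair 2 (squares); the dashed line is the median of all genes tested. Most pairs straddle or touch the line, Prdm1 is low in both pairs, and Trp53 is low in pair 2.

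Since no genome was used, seed sites could be searched only in the 60 bases of each probe. The 7-base site for bases 2 to 8, CTCAGGG, was found on the target strand in 245 of 55681 probes (0.44%) and in 98 of the 23253 probes tested. Those 98 had a median difference of 0.01 log2 units against 0.03 for all probes tested, 53 of them lay below the median of all, and 3 were lower and 3 higher at an unadjusted p under 0.05, against 1.42% and 2.35% of all probes tested. The longer site CTCAGGGA, which contains the first and adds an A opposite base 1, was in 24 tested probes with a median of 0.07, of which 9 lay below the median of all and 0 were lower and 3 higher at that threshold. The seed on the opposite strand, CCCTGAG, was in 142 tested probes with a median of 0.09, of which 43 lay below, with 3 lower and 8 higher. A match is a run of letters in a probe, not a measured binding site, and the rest of each transcript was not searched.

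Windows around the longer site are shown for 4 bright genes among those named in RefSeq, picked after their values were seen, with the site in capitals.
Mcl1: ttacacgtctCTCAGGGAaaa
Ppat: acacagaaaCTCAGGGAaggttctaca
Inpp5k: gagaagacacCTCAGGGAgtcttgccct
Gstt2: ggacaagttcCTCAGGGAc
Mcl1, an antiapoptotic BCL2 relative and a reported target (probe at chr3:95466855-95466914, mm9, plus strand), had a site-bearing probe that read 5.37 and 5.65 with miR-Neg and 5.31 and 5.49 with miR-125b. Its difference was −0.11 ± 0.12. Ppat, which catalyses the first committed step of purine synthesis (chr5:77342626-77342685, minus strand), differed by −0.17 ± 0.12. The inositol phosphatase gene Inpp5k (chr11:75462152-75462211, plus strand) and the glutathione transferase gene Gstt2 (chr10:75295206-75295265, minus strand) differed by 0.16 ± 0.12 and 0.16 ± 0.14. None of the 4 differed by more than 0.3 in either pair.

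Of 29 measured genes of the pre-B cell receptor and the B lineage, 27 differed by less than 0.5 log2 units between miR-125b and miR-Neg. In all, 16 lay above and 13 below the median of all genes, with a list median 0.01 above it. At an unadjusted p under 0.05, 2 were lower and 0 higher, beside 1.4% and 2.76% of all genes. Igll1, the lambda5 part of the surrogate light chain, read 4.76 and 3.70 with miR-Neg and 3.95 and 3.29 with miR-125b, a difference of −0.61 ± 0.16 (limma adjusted p = 0.953). The kinase Syk, which relays the receptor's signal, read 3.33 and 1.85 with miR-Neg and 2.48 and −0.62 with miR-125b. Its difference of −1.66 ± 0.47 was −0.85 in pair 1 and −2.46 in pair 2, and its groups overlapped. The 11 measured genes of V(D)J recombination all lay between −0.16 and 0.14. Of 12 plasma cell genes 9 lay below the median of all genes and 1, Prdm1, was lower at the unadjusted threshold.

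The Abelson virus drives these cells through a constitutively active Abl kinase, which feeds STAT5 and Myc. Of 26 genes chosen for this response, 1 was higher and 0 lower at the unadjusted threshold, against 2.76% and 1.4% of all genes. The higher gene was the adaptor Gab2, with a difference of 0.53 ± 0.11. It was dim, at −3.78 and −3.31 with miR-Neg and −3.23 and −2.82 with miR-125b. Its difference fell to as little as 0.25 in the alternative processings. The list median was 0.02 below that of all genes. Myc differed by −0.29 and the cytokine signalling inhibitors Socs1 and Socs3 by −0.20 and −0.18. The receptor kinase inhibitor Spry2 had the lowest mean, −1.07 ± 0.72, with −2.34 in pair 1 and 0.20 in pair 2, so its pairs went opposite ways.

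Genes of p53 signalling and of apoptosis lay on both sides of the median. Of 25 measured p53 pathway genes 9 lay above and 16 below the median of all genes, and of 26 apoptosis regulators 13 lay above and 13 below. At the unadjusted threshold the count was 0 in either direction for both lists, against 2.76% higher and 1.4% lower among all genes. Apart from Trp53, the largest values were for Bad, a BH3-only protein, at 0.55 ± 0.25 (−0.12 ± 0.13 on a second probe, and 0.22 for the mean of its probes), and for the apoptosome component Apaf1 at −0.46 ± 0.33, with 0.09 in pair 1 and −1.02 in pair 2. Of 27 S-phase genes 20 lay above the median of all genes (list median 0.02 above it), and of 26 G2/M genes 18 lay below (0.05 below). Neither offset kept its sign over the alternatives, which gave −0.08 to 0.09 for S-phase and −0.18 to 0.01 for G2/M. The proliferation antigen Mki67 was the lowest G2/M gene, at 5.76 and 6.32 with miR-Neg and 5.46 and 5.45 with miR-125b. Its difference was −0.59 ± 0.19, and a second probe gave −0.27 ± 0.22.

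Interferon response genes, switched on when cells sense foreign RNA, had a median 0.05 above that of all genes, with 11 of 19 measured genes above it and 0 past the unadjusted threshold in either direction. The ubiquitin-like Isg15 differed by 0.27 ± 0.11 and the RNA sensor Ddx58, which encodes RIG-I, by 0.34 ± 0.16. In 70Z/3 Isg15 was higher by 1.08 and 2.40 in the pairs. Of 18 NF-kappaB response genes 13 lay below the median of all genes, with the list median 0.10 below, 0.21 below in pair 1 and 0.03 below in pair 2. Without the first miR-Neg array it was 0.12 above. The chemokine gene Ccl3 went the other way, at 0.61 ± 0.11. It was dim, at −3.73 and −2.50 with miR-Neg and −3.08 and −1.94 with miR-125b, so the groups overlapped. Its difference fell to as little as 0.32 in the alternative processings. It ran from −0.01 to 1.22 when 1 array was left out and the rest were not paired. Ccl3 was the only one of the list past the unadjusted threshold. Among all genes tested 2.76% were higher and 1.4% lower at that threshold.

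The lists of leukotriene, selenium and matrix genes were written with the leading genes Ltc4s, Sephs2, P3h1, Srpx2 and Vim known, and hold them as members. Besides Ltc4s, the other 8 measured genes of leukotriene and prostaglandin synthesis lay within 0.5 of 0, among them the phospholipase Pla2g4a at 0.15 ± 0.12 and the related enzyme Mgst2 at 0.15 ± 0.12. Of 17 genes of selenium and glutathione metabolism 1, Sephs2, was lower at the unadjusted threshold, and the others lay between −0.20 and 0.21. Of 23 cytoskeleton and matrix genes 3 were lower, P3h1, Srpx2 and Vim, against 1.4% of all genes. Higher was 1, the lectin Lgals1, at 0.72 ± 0.21, against 2.76% of all genes. The list median was 0.02 below that of all genes.

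The median of 21 unfolded protein and ATF4 response genes was 0.07 above that of all genes. Its 1 gene past the unadjusted threshold was Ddit3, which encodes the stress factor CHOP, at 0.50 ± 0.11, while the pseudokinase gene Trib3 differed by 0.72 ± 0.27. Among all genes tested 2.76% were higher and 1.4% lower at that threshold. Genes of cholesterol synthesis (21 measured), glycolysis (20) and the microRNA pathway (17) had medians within 0.02 of that of all genes and 0 past the unadjusted threshold. None of the 22 lists had a gene past the adjusted threshold.

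**Figure D4:**
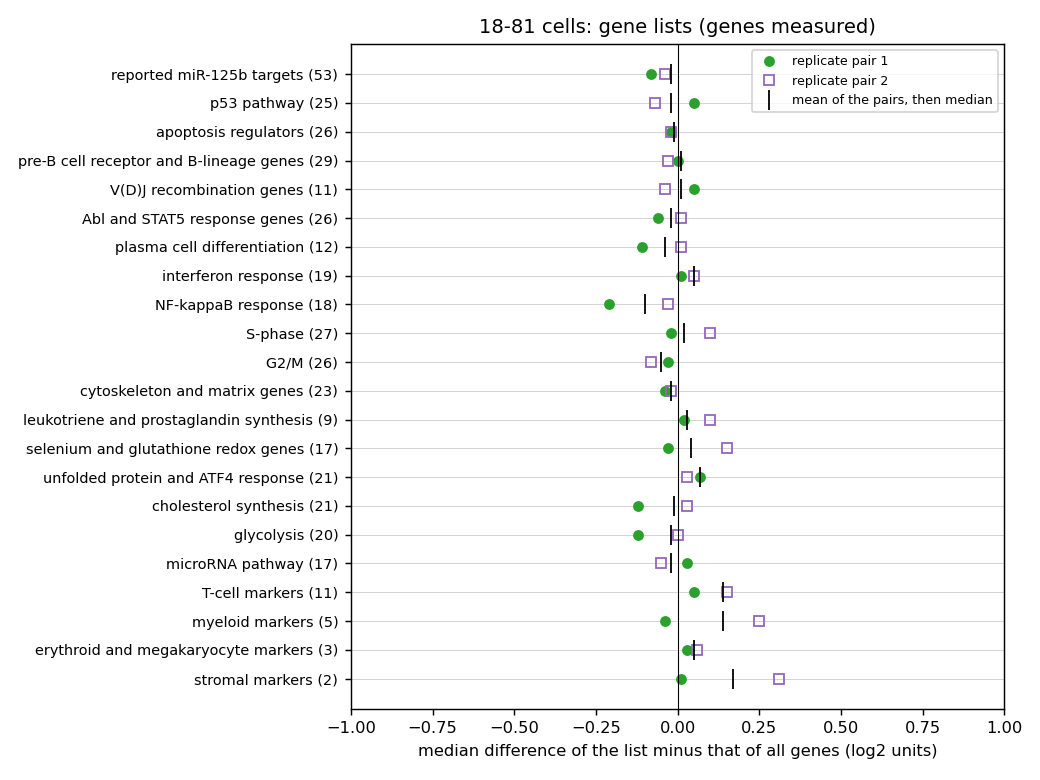
For each of the 22 gene lists, the median of miR-125b minus miR-Neg over its measured genes (number in brackets) minus the median of all genes tested, in log2 units, in replicate pair 1 (circles) and pair 2 (squares); the black tick is the median of the mean differences. The ticks lie between −0.10 for the NF-kappaB response and 0.17 for stromal markers, a list with 2 measured genes.

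Markers of other cell types were examined because Ltc4s, Mpeg1 and Rnase6 are known from myeloid cells. Of 10 myeloid markers 3 were well above background on all 4 arrays, and Lyz2, Mpo, Ctsg, Cd14, S100a8 and S100a9 were on none. The summed myeloid level was 3.79 and 2.87 with miR-Neg and 3.70 and 3.27 with miR-125b, so it was higher in pair 2 but not in pair 1. Itgam made up most of this sum, at 3.57 and 2.45 with miR-Neg and 3.46 and 2.37 with miR-125b. The neutrophil elastase gene Elane was higher by 0.15 in pair 1 and 0.98 in pair 2. The median of the longer myeloid list, with 5 measured genes, was 0.14 above that of all genes and ran from −0.13 to 0.60 over the alternatives. Csf1r, a macrophage growth factor receptor, was higher in pair 2 alone (−0.01 and 1.70), and 2 further probes of it differed by −0.07 and 0.09. Of 11 T-cell markers 8 were above background on all 4 arrays, with a summed level of 4.20 and 4.71 with miR-Neg and 4.31 and 4.95 with miR-125b, and Cd247 and Cd8a on none. The median of the longer T-cell list was 0.14 above that of all genes, and ran from 0.11 to 0.48 over the alternatives, the highest without the second miR-Neg array and the next highest without the first miR-125b array. Cd5, which B cells can also carry, differed by 0.48 ± 0.11 and the adaptor gene Lat by 0.39 ± 0.11, the 2 of 11 higher at the unadjusted threshold. At that threshold 2.76% of all genes were higher. Of 5 erythroid markers on the array 2 and of 8 stromal markers 0 were above background on all 4 arrays. The part of other cell types in these differences was not tested.

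The effect in the Abelson line was then set against that in 70Z/3 with a test of the difference itself over all 8 arrays. None of 18778 genes (0%) passed the adjusted threshold in limma, where the smallest adjusted p was 0.165, and 2423 (12.9%) had an unadjusted p under 0.05. The median of this difference over all genes was 0.16 log2 units, and 0.02 after quantile normalization, so small differences depend on the scaling. The spread of the effects across genes was narrower in the Abelson line, with a standard deviation of 0.32 log2 units against 0.55. The 70Z/3 arrays were less alike in brightness within a pair. Their 75th percentile was 512.8 intensity units with miR-Neg and 701.5 with miR-125b in pair 1, and 337.7 and 504.0 in pair 2. The part of brightness in the wider spread was not tested.

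The genes that led in the Abelson line were then looked up in 70Z/3. There the effects of all genes had a median of −0.13 log2 units and a standard deviation of 0.55. Of the 10 lower genes 1, Tmed9, had a mean past −0.5 in 70Z/3 (−0.71). Of the 10 higher genes 2 had a mean past 0.5, Mpeg1 (1.47 and 1.53 in the pairs) and Kif5a (0.85 and 1.12). Well above background on all 4 arrays of 70Z/3 were 9 of the 10 lower and 7 of the 10 higher genes. Rnase6 was so on none of them and Jam2 on 1. The share of all genes past 0.5 in 70Z/3 was not counted, so these counts have no background to be read against. Ltc4s was higher in the Abelson line by 4.05 and differed by −0.80 in 70Z/3, a difference between the lines of 4.86 ± 0.61 (adjusted p = 0.329 in limma). Cfap300 was lower in the Abelson line by 3.10 and differed by 0.35 in 70Z/3, a difference of −3.45 ± 0.37 (adjusted p = 0.329). Srpx2 and P3h1 differed between the lines by −2.45 ± 0.31 and −2.51 ± 0.32.

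The reverse pattern, an effect in 70Z/3 with little in the Abelson line, was seen for Sparc, Sla2, Abtb1 and Myl4. Sparc, a secreted matrix glycoprotein, read −2.71 and −3.26 with miR-Neg and −2.56 and −2.95 with miR-125b in the Abelson line, against pair differences of 4.60 and 4.68 in 70Z/3. Its difference between the lines was −4.41 ± 0.24 (adjusted p = 0.165). The adaptor gene Sla2 differed by 0.14 in the Abelson line and 2.40 in 70Z/3. Abtb1, a reported target, read 3.02 and 2.87 with miR-Neg and 3.14 and 2.76 with miR-125b in the Abelson line, a difference of 0.00, and differed by −1.67 and −1.90 in the pairs of 70Z/3. Myl4, a myosin light chain gene, differed by 0.05 in the Abelson line and −1.67 in 70Z/3. The corepressor gene Tle5 and the predicted gene Gm5106 had effects of opposite sign, 0.58 and 1.06 in the Abelson line against −1.77 and −2.21 in 70Z/3.

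**Figure D5:**
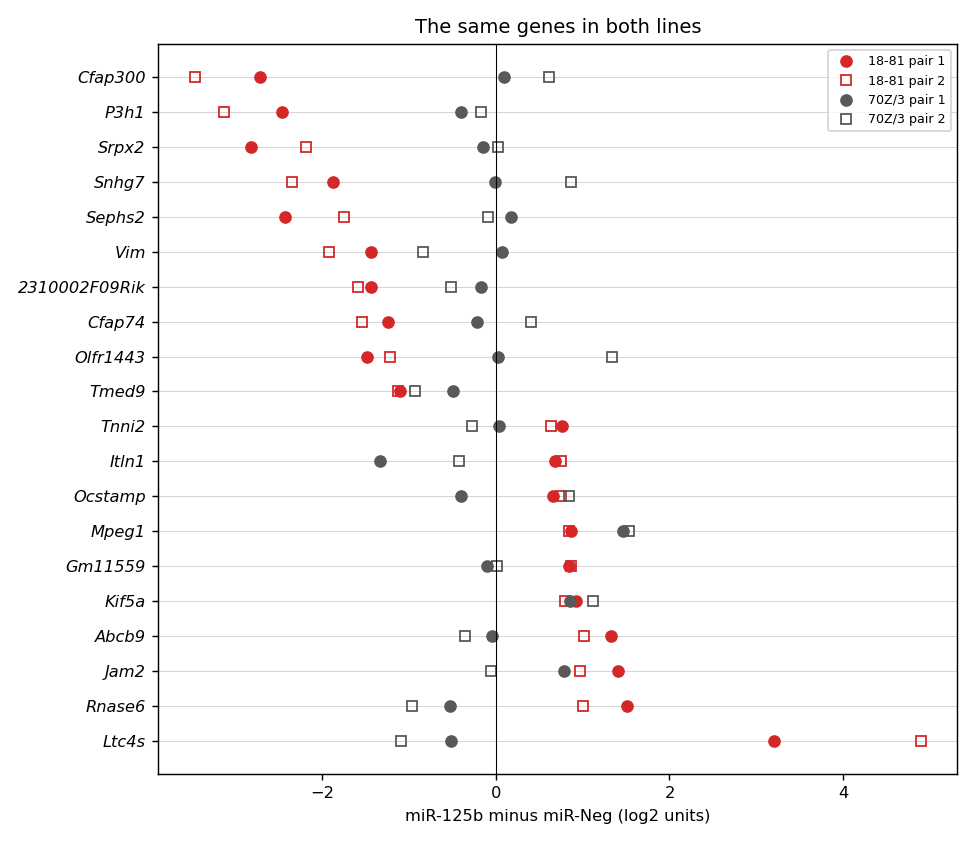
The difference miR-125b minus miR-Neg in log2 units for the 20 genes with the smallest p-values in the Abelson line, in each replicate pair of the Abelson line (red) and of 70Z/3 (grey). The red points lie to 1 side of 0 for every gene because the genes were chosen on them, while Mpeg1 and Kif5a are the genes whose grey points both lie past 0.5 on the same side, with Tmed9 close to it (−0.49 and −0.93).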

How the data were processed

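RNA from 8 samples was hybridised to 1-colour Agilent mouse arrays on 1 slide, 1 array per sample. Spot intensity was read by the authors in Agilent Feature Extraction 10.7.3.1 with positions on mm9, per the file headers, and the deposited processed intensity is background-subtracted and detrended. The authors' series table holds intensity values after a normalization not given in the sources used here, and served as an alternative.

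Control and outlier spots (140 to 203 an array) were left out and repeat spots averaged; none was saturated. Of 55681 probes 26413 were named by accession, 3859 by symbol and 735 by older symbol (RefSeq, GRCm38.p6), and 24674 by the file alone. Genes entered the test when both arrays of either group read a probe well above background, and the brightest probe stood for the gene. limma 3.58.1 (R 4.3.3) fitted log2 intensity minus the array's 75th percentile, with replicate number as a block and Benjamini-Hochberg adjustment at 0.05. With 1 residual degree of freedom the prior (2.17 degrees of freedom, standard deviation 0.134) sets much of each error. Same-numbered arrays deviated together (r = 0.68 over 17420 genes) and the design text names 2 experiments, so the numbers pair the samples. The fit was tested on simulated data.

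Named genes were the 10 per direction with the smallest p (well above background on all 4 arrays), up to 6 per direction crossing the detection limit, up to 6 per list, 19 fixed genes and 5 per direction for the difference between lines. The members and lists were chosen with earlier results of these data known.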

Additional observations from a re-analysis of the deposited data

How the results depend on the processing

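The count of genes past the adjusted threshold in the Abelson line was 0 without the replicate block, with all 8 arrays, under quantile normalization, normexp, the authors' series table, no or a stricter intensity filter, the mean of probes and an intensity trend. It was 230 to 270 when 1 array was left out, where 3 unpaired arrays left limma with an infinite prior and so the same spread for every gene. With the 70Z/3 arrays kept in those fits, an alternative chosen after seeing the data in which the lone array is taken to vary like the rest, it was 20 and 75 when the first or second miR-Neg array was left out, and 10 and 37 when the first or second miR-125b array was. Without miR-Neg replicate 1 Cfap300 then had an adjusted p of 0.0465, and without miR-Neg replicate 2 Srpx2 had 0.0459. Their ranges over these 4 fits were 0.0465 to 0.125 and 0.0459 to 0.114. Gm9246 had 0.0465 without miR-Neg replicate 1 and Ctbs 0.0332 without miR-125b replicate 2, with ranges of 0.0465 to 0.44 and 0.0332 to 0.437. Without pairing (no replicate block) the count at an unadjusted p under 0.05 fell to 154 and that for the difference between the lines to 606. With no intensity filter these were 1527 and 3726. Leaving out 1 array gave 463 to 1019 and, with 70Z/3 in the fit, 465 to 830 in the Abelson line, and 635 to 1386 for the difference between the lines. Genes past the adjusted threshold for that difference numbered 1 with normexp, 1 with the stricter filter, 1 with the intensity trend and 0 to 16 when 1 array was left out. Genes past 1 log2 unit in both pairs numbered 39 with normexp, 332 with no filter and 44 with the stricter one. The filters also change how many genes are tested, and the causes of these changes were not tested. Over all alternatives 292 of 2670 values of named genes changed sign or moved. A further 45, of 17 genes, passed the adjusted threshold in the fits of 3 arrays, and 4 did in the fits with 1 array left out and the 70Z/3 arrays kept. Of the list medians, 71 of 286 moved. The number of arrays limits every value here.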
